A study of Rattus norvegicus with 10 samples.

Results

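The integrated stress response is the pathway by which cells slow protein synthesis under strain, and its transcriptional targets were followed here in the neurointermediate lobe of the rat pituitary. The 10 genes were Trib3, Ddit3, Atf3, Atf4, Atf5, Asns, Chac1, Sesn2, Psat1 and Phgdh. Every probe set whose platform annotation gave exactly 1 gene symbol equal to one of these names was taken. That gave 13 probe sets for the 10 genes, among 14217 genes with such a probe set on the array. The 5 dehydrated arrays carried RNA of male Sprague Dawley rats, 10 to 12 weeks old, after 3 days of dehydration, and the 5 control arrays carried RNA of control rats of the same strain, sex and age. Each array held a pool of 5 animals, prepared separately, so the spread between arrays is a spread between pools. The design text of the series names the supraoptic nucleus, while its title and all sample labels name the neurointermediate lobe, and the labels were followed.

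In this pathway, kinases that sense amino acid shortage, unfolded protein in the endoplasmic reticulum, haem shortage or double-stranded RNA phosphorylate the initiation factor eIF2. General translation then slows while a few messages, Atf4 and Atf5 among them, are translated more, and the ATF4 protein switches on genes of amino acid supply and of stress feedback. The lobe is rich in the terminals of peptide neurons and in secretory endocrine cells. In the endocrine cells the endoplasmic reticulum folds large amounts of hormone precursor. Because ATF4 is controlled largely at translation, the arrays, which measure RNA, do not report its protein.

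ATF4 binds with C/EBP partners to a composite element called CARE, searched here as TGATGNAA on both strands. RefSeq promoters of build GRCr8, 250 bases before to 50 after the gene's start, were matched by symbol for 9 of the 10 genes, Atf3 being the exception. The element was present in 2 of these 9, Trib3 and Chac1, and in 3.98% of all 33469 promoters of the same length. Stretches around both matches are shown because these genes share the element and had different values on the arrays. Capitals mark the match, which lies on the opposite strand in each and overlaps none of the other motifs searched. The Trib3 stretch is chr3:161275534-161275604 on the minus strand, with the match 21 to 14 bases before the start, and the Chac1 stretch is chr3:126795914-126796021 on the plus strand, with the match 167 to 160 bases before it.
Trib3: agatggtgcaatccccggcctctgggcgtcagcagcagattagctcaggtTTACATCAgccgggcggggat
Chac1: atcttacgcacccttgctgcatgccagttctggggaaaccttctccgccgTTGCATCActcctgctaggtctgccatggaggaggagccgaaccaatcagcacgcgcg
The cyclic AMP response element, TGACGTCA, was found in none of the 9 promoters (1.83% of all), and the CCAAT box, CCAAT on either strand, in 5 of them (37.5% of all): Chac1, Ddit3, Phgdh, Psat1 and Sesn2. A match is a description of letters and not a binding site, and an absent match says only that the letters are not in this window.

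Signals are the scaled intensities that the authors deposited, and changes were computed on log2(signal + 5), which understates the change of dim probe sets. Array medians were 35.7 to 38.9 in dehydrated lobes and 36.2 to 39.6 in control lobes, and arrays correlated at r = 0.947 to 0.976 across probe sets. The number of arrays limits the precision. RNA integrity was read from 3' against 5' signal (log2 ratio, averaged over Gapdh and beta-actin), which increases as RNA is shortened. It was 1.61 to 2.67 in dehydrated lobes and 1.26 to 2.52 in control lobes, with means of 2.15 ± 0.38 and 1.78 ± 0.48 (SD, n = 5 each, exact two-sided permutation p = 0.214). Dehydrated 5 had the lowest ratio of its group and control 1 the highest of its own. Without these arrays the ratio was 2.05 to 2.67 in dehydrated lobes and 1.26 to 1.91 in control lobes, without overlap.

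Of the 13 probe sets, 12 lay among the brightest 60% that were tested, and 9 genes had at least 1 such probe set. The test was limma, fitted over all 18625 tested probe sets, and a probe set was called at a Benjamini-Hochberg adjusted p under 0.05. Trib3 and Asns were higher in the dehydrated lobes, and the other 7 tested genes did not pass. Of the 12 tested probe sets, 3 rose, from 2 genes (1.68% of all tested probe sets did), and 0 fell by limma (0.784% of all did). At an unadjusted p under 0.05 by limma there were 6, of which 2 were lower and the rest, of Trib3 and Asns, higher (8.66% of all were lower and 8.7% higher). In either direction 2.46% of all tested probe sets were called, 312 higher and 146 lower, or 456 and 113 with each array centred on its median. With 1 probe set a gene, 3 of the 9 genes had a positive and 6 a negative change. Their median was -0.12 on the log2 scale, against -0.01 over all tested probe sets.

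**Figure D1:**
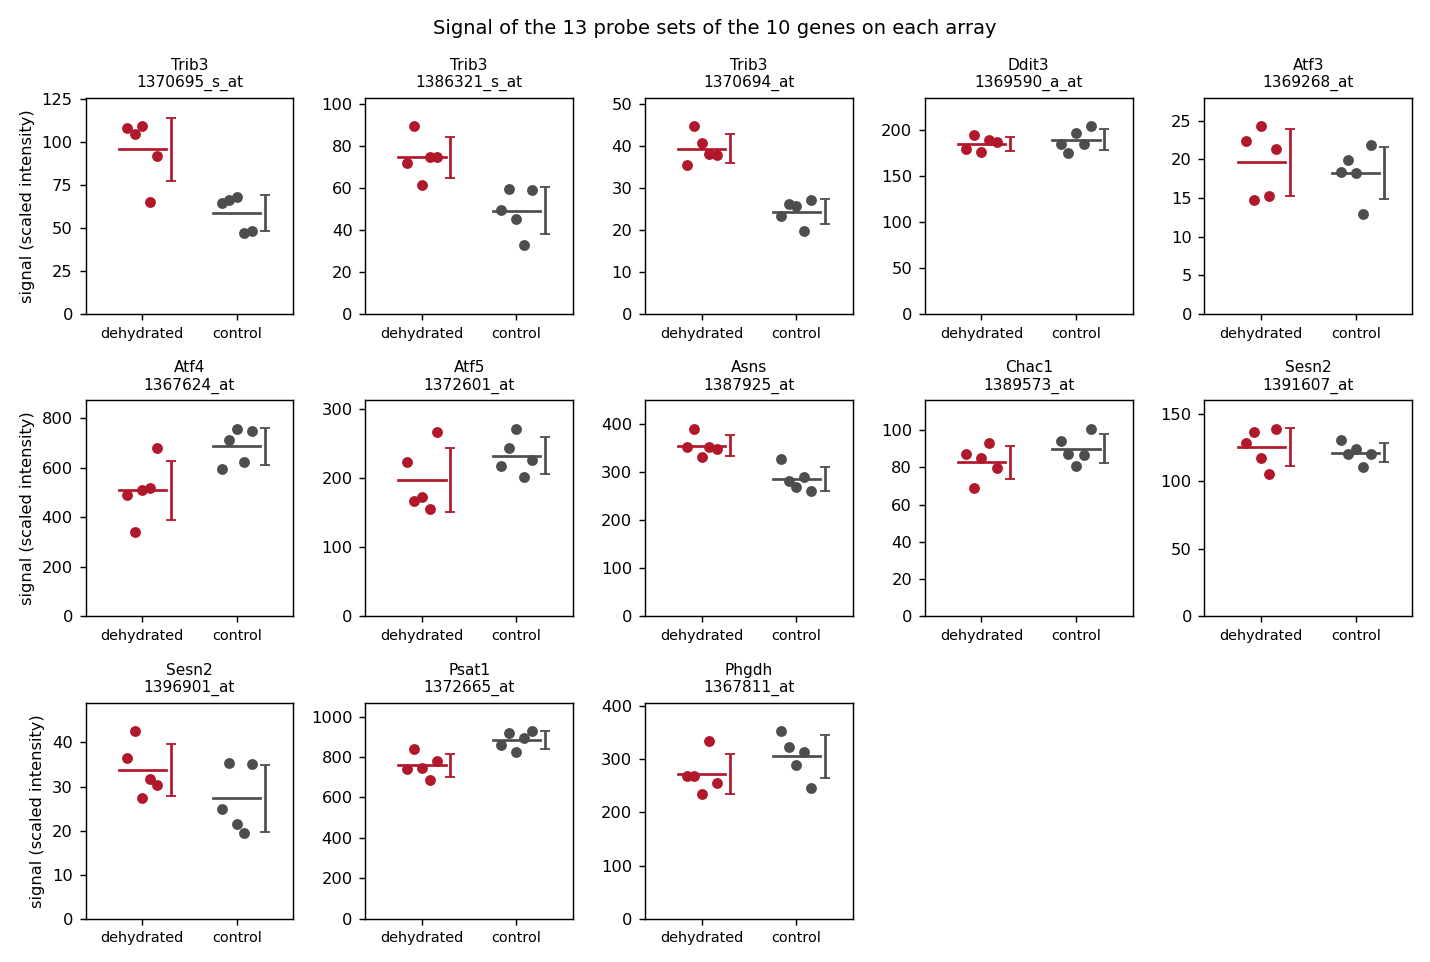
Signal (scaled intensity, linear axis from 0) of each of the 13 probe sets on the 5 dehydrated (left, red) and 5 control arrays (right, grey); points are arrays, horizontal lines group means and vertical bars the SD. The groups do not overlap for Trib3 1386321_s_at, Trib3 1370694_at and Asns, and they overlap for the other 10 probe sets.

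Trib3 (Entrez Gene 246273) encodes a pseudokinase that is switched on by ATF4 with CHOP and restrains both in return. It had 3 probe sets. The brightest, 1370695_s_at, had signals of 108.1, 104.6, 109.4, 65.1 and 91.9 in dehydrated 1 to 5, against 64.7, 66.4, 67.9, 47.0 and 48.2 in control 1 to 5. Of the dehydrated arrays, 4 lay above every control, and dehydrated 4 fell within the control range. Its mean was 95.8 ± 18.5 in dehydrated lobes and 58.8 ± 10.3 in control lobes (SD, n = 5 each), or 1.57-fold on the log2(signal + 5) scale (a log2 change of 0.65 with an SE of 0.15, limma adjusted p = 0.0308).

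The second probe set of Trib3, 1370694_at, is dimmer. It had signals of 35.6, 44.8, 40.7, 38.1 and 37.8 in dehydrated 1 to 5, against 23.4, 26.1, 25.7, 19.8 and 27.1 in control 1 to 5, and it rose by 0.60 ± 0.14 (SE) on the log2 scale (limma adjusted p = 0.0366). All dehydrated arrays lay above all controls. The third, 1386321_s_at, had signals of 71.9, 89.5, 61.6, 74.9 and 74.9 in dehydrated 1 to 5, against 49.6, 59.6, 45.1, 32.7 and 58.9 in control 1 to 5. The groups did not overlap here either, while the log2 change of 0.57 ± 0.15 (SE) did not pass (limma adjusted p = 0.0619). Groups without overlap, dehydrated higher, were seen for 3 of the 12 member probe sets, the third being that of Asns, and for 2.78% of all tested probe sets; groups without overlap in the other direction were seen for 0 member probe sets and 1.81% of all.

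The size of the Trib3 change varied less than its call. Averaged over its 3 probe sets, the log2 change was 0.61 ± 0.13 (SE, limma adjusted p = 0.0135). That p is from a separate fit of gene averages, adjusted over fewer tests than those of the single probe sets. The call of 1370695_s_at ended without dehydrated 1, 2 or 3 or control 4 or 5 (log2 change 0.58 to 0.62, limma adjusted p up to 0.104), and that of 1370694_at ended without any one array other than dehydrated 5 (0.54 to 0.63, limma adjusted p up to 0.0954). Without the filter on dim probe sets neither passed (limma adjusted p = 0.0661 and 0.0987), and without an intensity trend 1370695_s_at did not (limma adjusted p = 0.0663). In the suffix, "s" marks a probe set whose probes can match more than 1 transcript, so 2 of the 3 probe sets could read related sequence, while 1370694_at carries no such mark.

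Asns (Entrez Gene 25612) encodes asparagine synthetase, which makes asparagine from aspartate and glutamine and is a classical ATF4 target. Its signals were 351.4, 389.7, 329.9, 351.6 and 346.7 in dehydrated 1 to 5, against 325.8, 280.0, 269.3, 289.0 and 260.4 in control 1 to 5. All dehydrated arrays lay above all controls, by a narrow gap between dehydrated 3 and control 1. The mean was 353.9 ± 21.9 in dehydrated lobes and 284.9 ± 25.3 in control lobes (SD, n = 5 each), or 1.24-fold (a log2 change of 0.31 with an SE of 0.08, limma adjusted p = 0.0471). The call ended without any one array other than dehydrated 5 or control 1 (log2 change 0.28 to 0.33, limma adjusted p up to 0.131) and also with quantile normalization, without the filter on dim probe sets and without an intensity trend (0.31 in each, limma adjusted p = 0.0523, 0.0647 and 0.115).

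**Figure D2:**
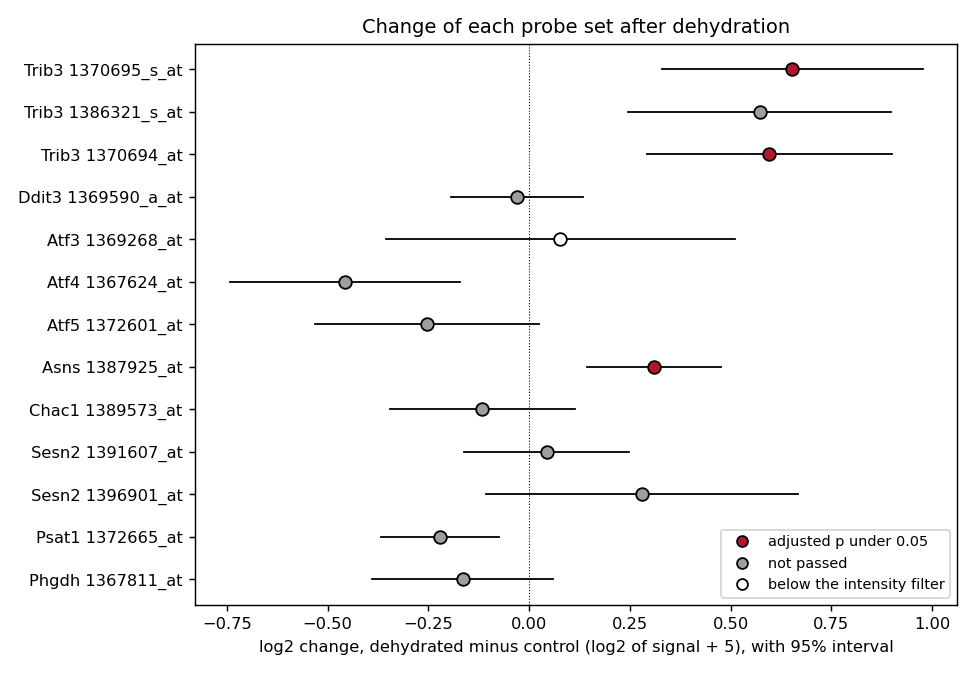
Log2 change (dehydrated minus control, on log2 of signal + 5) of each of the 13 probe sets with its 95% interval; red points passed an adjusted p of 0.05, grey points did not, and the open point lay below the intensity filter. The 3 Trib3 probe sets sit at 0.57 to 0.65 and Asns at 0.31, while Atf4 sits at -0.46 and Psat1 at -0.22.

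Atf4 (Entrez Gene 79255), the transcription factor at the centre of the pathway, did not pass, and its values lay in the opposite direction to Trib3 and Asns. Its signals were 490.3, 340.8, 512.4, 519.2 and 679.9 in dehydrated 1 to 5, against 593.9, 712.9, 758.6, 621.9 and 750.2 in control 1 to 5. Dehydrated 1 to 4 lay below every control, and dehydrated 5 fell within the control range. The log2 change was -0.46 ± 0.13 (SE, 95% interval -0.74 to -0.17, limma adjusted p = 0.0838). Without dehydrated 5 it passed at -0.57 (limma adjusted p = 0.00915), and without dehydrated 5 and control 1 at -0.62 (limma adjusted p = 0.00695). With both of these arrays left out, the 3' to 5' ratios of the groups did not overlap, so group and ratio moved together there.

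RNA integrity moved with Atf4 and Asns from array to array. With each group's mean taken off, Atf4 correlated with the 3' to 5' ratio at r = -0.86 over the 10 arrays (p = 0.000208, adjusted 0.0025 over the 12 member probe sets; Spearman's rho = -0.98, p = 0.000278, adjusted 0.00333; permutation over all 14400 orders within the groups). Asns correlated with it in the other direction, at r = 0.87 (permutation p = 0.00542, adjusted 0.0325; Spearman's rho = 0.78, p = 0.0203, adjusted 0.122). Without control 1 and dehydrated 2, the arrays farthest from the median, r was -0.92 for Atf4 and 0.52 for Asns. For the other 10 probe sets r lay between -0.50 and 0.50 (permutation p from 0.14, adjusted 0.5 or more). The Trib3 probe sets differed in sign, at 0.31 for 1370695_s_at, -0.07 for 1386321_s_at and -0.12 for 1370694_at. Without control 1 and dehydrated 2 these 3 values were 0.13, -0.57 and -0.56, and Ddit3 and Sesn2 1391607_at stood at -0.66 and -0.51.

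With the ratio as a covariate in the same model, the change of Atf4 was -0.26 ± 0.09 (SE, limma adjusted p = 0.213) and that of Asns 0.23 ± 0.07 (SE, limma adjusted p = 0.146). The changes of the Trib3 probe sets were 0.58 to 0.61 with the covariate, against 0.57 to 0.65 without it, and none passed (limma adjusted p = 0.0759 to 0.101). Psat1 stood at -0.22 in either fit.

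**Figure D3:**
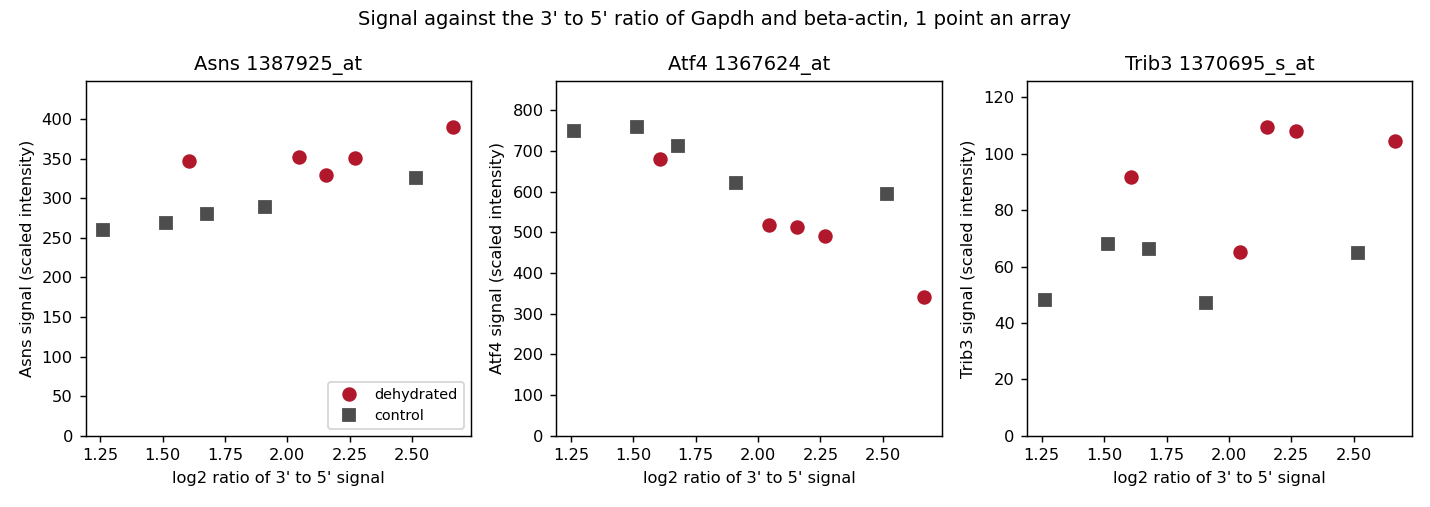
Signal (scaled intensity) of Asns, Atf4 and Trib3 1370695_s_at against 3' over 5' signal (log2 ratio, averaged over Gapdh and beta-actin); red circles are the 5 dehydrated and grey squares the 5 control arrays. Atf4 decreases along the axis within each group (r = -0.86 with group means taken off). Asns (r = 0.87) increases along it in the controls. Of the dehydrated arrays, dehydrated 2 is highest in Asns, and the others show no steady order. Trib3 1370695_s_at has r = 0.31, while the other Trib3 probe sets, not drawn, have -0.07 and -0.12.

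Atf5 (Entrez Gene 282840), a factor related to ATF4 whose message is also translated more when eIF2 is phosphorylated, had signals of 223.5, 167.6, 173.3, 155.6 and 267.6 in dehydrated 1 to 5, against 218.4, 244.6, 272.2, 202.0 and 226.8 in control 1 to 5. The groups overlapped, with 3 dehydrated arrays below every control. The log2 change was -0.25 ± 0.13 (SE, 95% interval -0.53 to 0.02, limma adjusted p = 0.337), and it was -0.15 with the 3' to 5' ratio in the model and -0.39 without dehydrated 5 and control 1, where it did not pass either (limma adjusted p = 0.708 and 0.0635).

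Ddit3 (Entrez Gene 29467), which encodes CHOP, a factor downstream of ATF4 that promotes cell death under prolonged stress, had nearly the same level on all arrays. Its signals were 179.2, 194.1, 175.7, 189.6 and 186.5 in dehydrated 1 to 5, against 184.8, 175.4, 196.9, 184.8 and 204.3 in control 1 to 5. The log2 change was -0.03 with a 95% interval of -0.19 to 0.13 (limma adjusted p = 0.881), and its sign turned when each array was centred on its median. The interval lies below the change of every Trib3 probe set, a difference between genes that was not tested.

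Atf3 (Entrez Gene 25389), a stress-induced factor of the same family, was dim and lay below the filter, at the 36.2 percentile of mean log2 signal. Its signals were 22.4, 14.8, 24.3, 15.3 and 21.4 in dehydrated 1 to 5, against 18.4, 19.9, 18.2, 12.9 and 21.9 in control 1 to 5. The groups overlapped in part, with dehydrated 1 and 3 above every control and control 4 below every dehydrated array. Fitted without the filter, where 1.03% of 31042 probe sets were called, the log2 change was 0.08 with a wide 95% interval of -0.36 to 0.51 (limma adjusted p = 0.92).

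Chac1 (Entrez Gene 362196) encodes an enzyme that breaks down glutathione and is strongly induced by ATF4 in cultured cells. Its signals were 87.1, 68.9, 84.8, 92.8 and 79.6 in dehydrated 1 to 5, against 94.2, 87.1, 80.7, 86.5 and 100.8 in control 1 to 5. The groups overlapped, and the log2 change was -0.12 ± 0.11 (SE, 95% interval -0.35 to 0.11, limma adjusted p = 0.627). Like Trib3 it holds a CARE match ahead of its start, and its interval ends below the changes of the 3 Trib3 probe sets. The difference between the 2 genes was not tested.

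Sesn2 (Entrez Gene 502988) encodes a leucine-binding protein that restrains mTORC1, and it had 2 probe sets. The brighter, 1391607_at, had signals of 128.7, 136.4, 117.6, 105.8 and 139.1 in dehydrated 1 to 5, against 130.3, 120.6, 123.9, 110.9 and 120.4 in control 1 to 5. Its log2 change was 0.04 (95% interval -0.16 to 0.25, limma adjusted p = 0.864). The dimmer, 1396901_at, spanned 27.4 to 42.6 in dehydrated lobes and 19.5 to 35.4 in control lobes, with a log2 change of 0.28 (95% interval -0.11 to 0.67, limma adjusted p = 0.457). The groups overlapped for both probe sets.

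Phgdh and Psat1 encode the enzymes of the opening pair of steps of serine synthesis, and neither passed. Psat1 (Entrez Gene 293820) had signals of 742.7, 841.3, 745.7, 686.5 and 781.6 in dehydrated 1 to 5, against 857.4, 919.2, 826.2, 892.4 and 928.6 in control 1 to 5. Of the dehydrated arrays, 4 lay below every control, and dehydrated 2 fell within the control range. The log2 change was -0.22 ± 0.07 (SE, 95% interval -0.37 to -0.07, limma adjusted p = 0.105), and it passed only with quantile (-0.28, limma adjusted p = 0.042) or cyclic loess normalization (-0.27, limma adjusted p = 0.0475) among the alternatives tried.

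Phgdh (Entrez Gene 58835) had signals of 267.9, 267.9, 233.9, 335.3 and 254.7 in dehydrated 1 to 5, against 353.2, 323.4, 289.5, 314.5 and 246.9 in control 1 to 5. The groups overlapped over most of their range. The log2 change was -0.17 (95% interval -0.39 to 0.06, limma adjusted p = 0.448). The intervals of Psat1 and Phgdh both end below that of Asns, the other amino acid synthesis gene of the set, whose 95% interval was 0.14 to 0.48; these differences between genes were not tested.

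**Figure D4:**
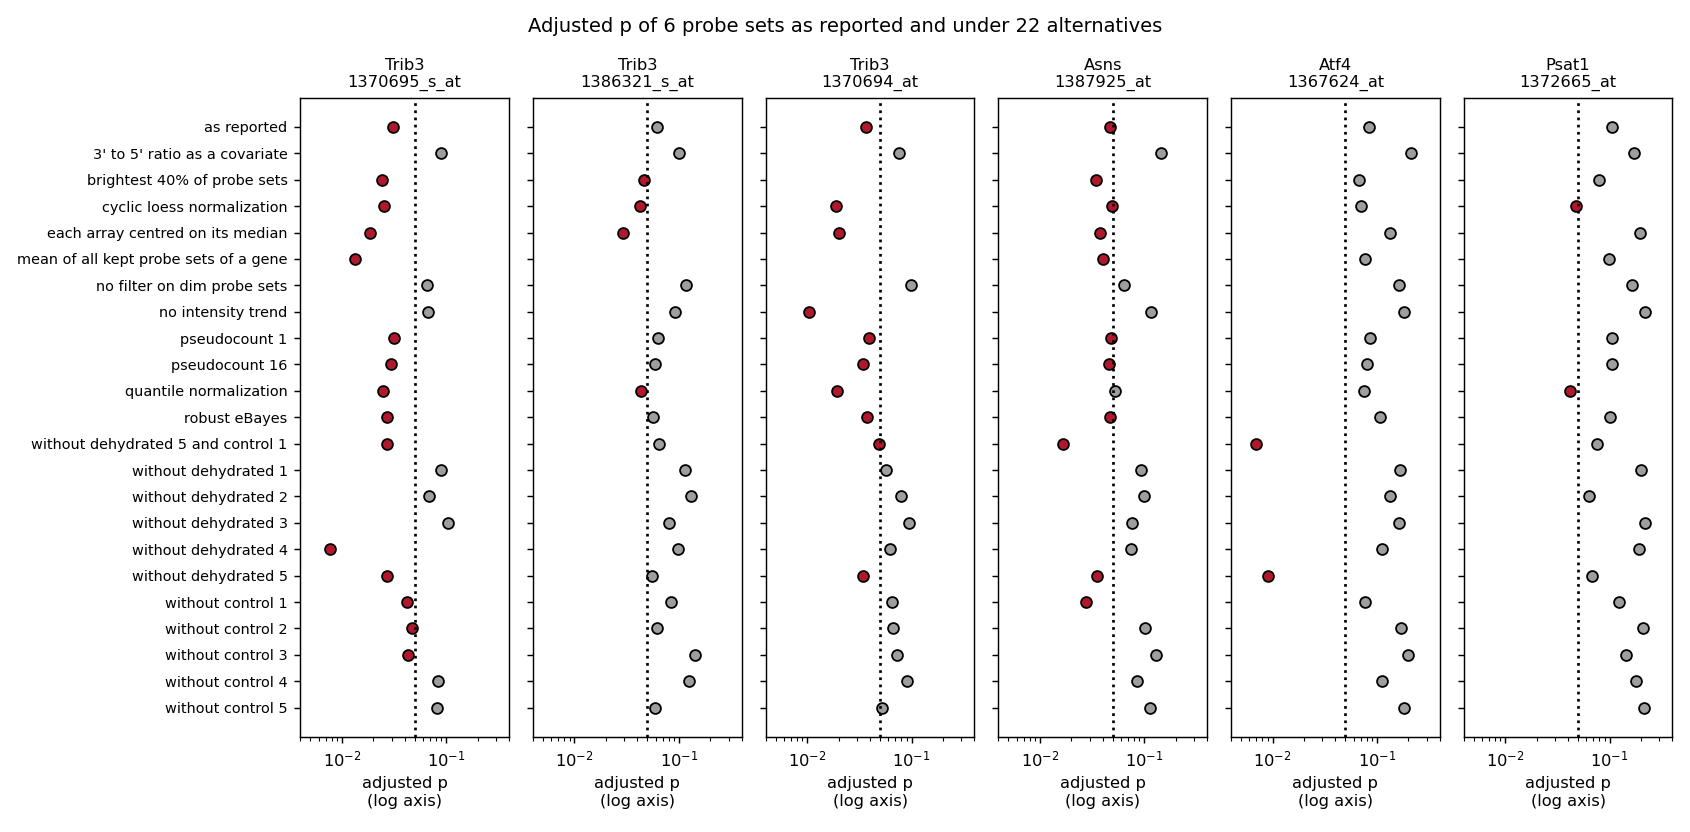
Limma adjusted p (log axis) of 6 probe sets as reported and under 22 alternatives, 1 row each; red points lie below 0.05 (dotted line) and grey points above it, and an alternative with no point could not hold that probe set. Trib3 1370695_s_at passed in 14 of 22 alternatives, Asns in 10 of 22 and Atf4 in 2 of 22.

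The genes around the members were measured from lists of 89 further genes of the pathway, of which 77 had a tested probe set. Of these 77, 1 rose, 0 fell and 76 did not pass by limma, and at an unadjusted p under 0.05 there were 4 higher and 15 lower. Over all tested probe sets 1.68% rose and 0.784% fell, and 8.7% were higher and 8.66% lower at an unadjusted p under 0.05. The median log2 change was -0.07, against -0.01 over all tested probe sets. Nupr1, a small stress-induced nuclear protein gene that ATF4 can activate, was the gene that rose. Its signals were 435.8, 411.7, 473.2, 480.9 and 413.5 in dehydrated 1 to 5, against 351.6, 258.2, 278.6, 343.9 and 220.2 in control 1 to 5. All dehydrated arrays lay above all controls, and the log2 change was 0.62 ± 0.11 (SE, limma adjusted p = 0.00623). Nupr1 passed under all 22 alternatives (limma adjusted p at most 0.0389), including the fit that took the 3' to 5' ratio into the model (0.51, limma adjusted p = 0.0156).

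Upstream of ATF4, none of 16 genes for the eIF2 kinases, eIF2, its exchange factor and its phosphatases passed (limma; 1 higher and 3 lower at an unadjusted p under 0.05; median -0.08). Eif2ak4, the kinase that senses uncharged tRNA, had a log2 change of -0.32 (limma adjusted p = 0.148). The corresponding value was 0.33 for Eif2ak2, the kinase that senses double-stranded RNA, and -0.23 for Dnajc3, described as an inhibitor of eIF2 kinases (limma adjusted p = 0.177 for each). Among 11 measured partners and other stress-induced genes, the 10 besides Nupr1 did not pass. Ddit4, an mTORC1 inhibitor, had a log2 change of -0.51 (limma adjusted p = 0.207) and passed at -0.82 without dehydrated 5 and control 1 (limma adjusted p = 0.00564), while with the 3' to 5' ratio in the model it stood at -0.16 (limma adjusted p = 0.545). Vldlr, a lipoprotein receptor, stood at -0.37 and Sesn1, a relative of Sesn2, at 0.17 (limma adjusted p = 0.159 and 0.322).

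Amino acid supply genes other than the members gave no call. None of 8 genes of serine, glycine, proline and one-carbon synthesis passed (limma; 2 higher and 2 lower at an unadjusted p under 0.05; median 0.05). Gpt2, an alanine aminotransferase, stood at 0.41, Psph, which completes serine synthesis, at 0.30, and Aldh18a1, which opens proline synthesis, at -0.27 (limma adjusted p = 0.113, 0.205 and 0.121). The mean over all tested probe sets of Gpt2 was 0.07 (limma adjusted p = 0.84), so its probe sets disagreed. The value of Aldh18a1 passed without dehydrated 5 (-0.31, limma adjusted p = 0.047). Of 9 amino acid transporters none passed (limma; 0 higher and 1 lower unadjusted; median -0.05), with Slc7a1 at -0.23, Slc38a2 at 0.14 and Slc1a5 at -0.11 (limma adjusted p = 0.243 to 0.694). The sign of Slc1a5 turned when the 3' to 5' ratio was in the model. Of 19 cytosolic aminoacyl-tRNA synthetases, many of them ATF4 targets, none passed (limma; 0 higher and 1 lower unadjusted; median -0.07), and Nars1, Hars1 and Wars1 had log2 changes of -0.22, -0.20 and 0.18 (limma adjusted p = 0.222 to 0.321). Over all tested probe sets of the gene, Hars1 averaged -0.50 and Wars1 0.01 (limma adjusted p = 0.251 and 0.968), and with the 3' to 5' ratio in the model Nars1, Hars1 and Wars1 stood at -0.12, -0.11 and 0.11.

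**Figure D5:**
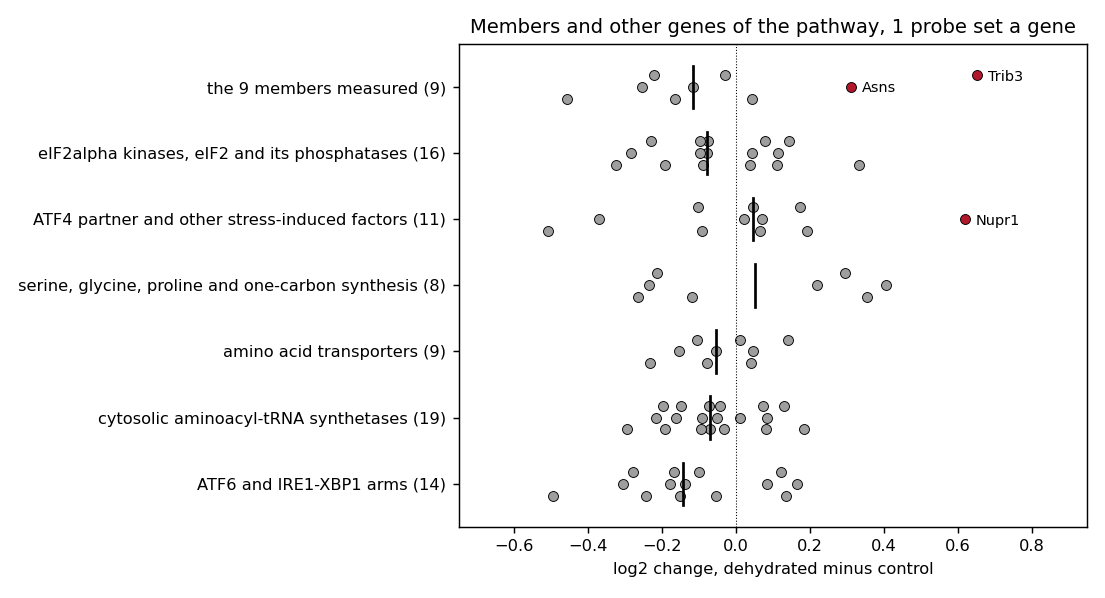
Log2 change (dehydrated minus control) of the 9 measured members and of the 77 other pathway genes by list, 1 point a gene; red points passed an adjusted p of 0.05, black bars are list medians, and the number of genes stands in brackets. Trib3 and Asns among the members and Nupr1 among the other genes are the named red points, and list medians lie between -0.14 and 0.05.

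The other arms of the unfolded protein response, run by ATF6 and by IRE1 with XBP1, also gave no call among 14 measured genes (limma; 0 higher and 6 lower at an unadjusted p under 0.05, against 8.7% and 8.66% of all tested probe sets; median -0.14). Hspa5, the chaperone BiP, had a log2 change of -0.17 (limma adjusted p = 0.209) and passed only with quantile (-0.34, limma adjusted p = 0.00311) or cyclic loess normalization (-0.29, limma adjusted p = 0.0156). Dnajb9, a co-chaperone, stood at -0.24 and Pdia4, a disulfide isomerase, at -0.31 (limma adjusted p = 0.145 and 0.142). Pdia4 passed at -0.37 without dehydrated 5 (limma adjusted p = 0.0402) and stood at -0.19 with the 3' to 5' ratio in the model (limma adjusted p = 0.412).

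The genes whose array-to-array pattern was most like that of a called member were ranked by Pearson's r over the 10 arrays with group means taken off. The r values are the highest among 10593 genes by construction and carry no test. For Trib3 1370695_s_at they were Tril (r = 0.97), Fer (r = 0.94) and Zbtb42 (r = 0.94), and for Asns they were Slc46a3 (r = 0.97), Fam114a2 (r = 0.93) and Dpm1 (r = 0.92). None of these 6 genes passed in the comparison of dehydrated with control lobes (log2 changes 0.09 to 0.31, limma adjusted p 0.185 to 0.784).

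Markers of the lobe's cell types moved between the groups, and their part in the changes of Trib3, Asns and Nupr1 was not tested. Melanotroph markers had a summed signal of 2683 to 3174 in dehydrated lobes and 3117 to 3509 in control lobes, with 1 of 4 lower (Pcsk2) and no tested probe set for Pax7. The summed signal of Avp and Oxt was 3314 to 4552 in dehydrated lobes and 1850 to 2037 in control lobes. Summed signals were also higher in dehydrated lobes, without overlap, for pituicyte and astroglia markers (3 of 5 rose), endothelial and mural markers (4 of 5 rose) and fibroblast markers (4 of 5 rose). Of the pituicyte and astroglia markers that did not pass, Vim stood at 0.24 and S100b, in the other direction, at -0.21 (limma adjusted p = 0.145 and 0.317). Summed signals overlapped for macrophage and microglia markers and for anterior lobe markers. Of the former, 1 of 5 rose (Aif1), while Cd68 and Cd74 stood at -0.74 and -0.33 and did not pass (limma adjusted p = 0.081 and 0.224). Of the latter, 1 of 6 fell (Fshb), and the other 5 had positive changes that did not pass. The anterior lobe sum was 4824 to 9379 in dehydrated lobes and 2574 to 7950 in control lobes. No tested marker was at 0 on any array, and 4 of the 5 markers of hypothalamic neuron bodies had no tested probe set. In such pooled tissue fewer cells of a type and less RNA per cell cannot be told apart.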

How the data were processed

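Rat Genome 230 2.0 arrays gave 1 value per probe set and array. The authors deposited these as intensity on a linear scale; GCOS 1.2, the Affymetrix software, is named per the submitters' processing notes, and its settings are not given in the sources used here. The deposited values share a common scale: the mean after trimming 2% at each end was 100.02 to 100.03 on all 10 arrays, within the 5% tolerance, so no further scaling was applied. No columns were identical.

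Of 31099 probe sets, 57 controls were left out. The platform annotation gave 1 gene symbol for 20826 of the remaining 31042, several for 436 and none for 9780, and gene IDs looked up in RefSeq changed 0 symbols. Values were taken as log2(signal + 5). The 60% with the highest mean over all arrays were tested, 18625 in number, with limma 3.58.1 in R 4.3.3 (lmFit, eBayes with intensity trend, two-sided, Benjamini-Hochberg over all tested probe sets). A gene was represented by its brightest tested probe set. All probe sets of the members were reported; of the other lists, every called gene and up to 3 more by smallest p. Summaries used Python 3.11.15. The model was tested on simulated data with known changes and noise drawn independently for each probe set. Those data held no shift shared across an array, so the test does not cover effects such as that of the 3' to 5' ratio. The members, lists and alternatives were chosen with earlier results of these data known. Neither batches nor replicate numbers are in the labels, so array numbers are names only and pair nothing.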

Additional observations from a re-analysis of the deposited data

How the results depend on the processing

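The 22 alternatives changed 1 choice at a time, except that 1 of them left out dehydrated 5 and control 1 together. The count of all called probe sets, 458, was 240 without an intensity trend, 1398 without dehydrated 5 and control 1, and 218 to 1156 with any one array left out. Without dehydrated 5 and control 1 the 3' to 5' ratios of the groups did not overlap. The count of member probe sets called, 3 from 2 genes, was 5 with cyclic loess normalization (4 higher and 1 lower), 1 from 1 gene without an intensity trend, and 0 when the 3' to 5' ratio was in the model or without the filter on dim probe sets (limma, with 7 and 6 at an unadjusted p under 0.05). With any one array left out it ranged from 0 to 4, from 0 to 3 genes: it was 0 without dehydrated 1, 2 or 3 or control 4 or 5, 1 without dehydrated 4 or control 2 or 3, and 4 without dehydrated 5, where Atf4, which was lower, is among them. Of the other pathway genes, 1 as reported, 2 were called with quantile or cyclic loess normalization, 6 without dehydrated 5 and control 1, and 1 to 5 with any one array left out, the 5 being without dehydrated 5. The group difference in the 3' to 5' ratio, 0.37, ranged from 0.24 to 0.56 with any one array left out, and at 0.56, without control 1, the exact permutation p was 0.0476. The sign turned for Ddit3 (0.0057 with arrays centred on their medians) and for Slc1a5 (0.0034 with the ratio as a covariate). The Trib3, Asns and Atf4 probe sets kept their direction under every alternative that could hold them, at 0.45 to 0.78, 0.23 to 0.37 and -0.62 to -0.26. The causes were not tested. No paired analysis was possible because the labels give no replicate numbers. Detection calls were not used here, so how far a dim probe set lay over background is unknown.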
